A study of Homo sapiens with 8 samples.

Results

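Known single-exon transcripts are annotated transcript models made of 1 exon, so no splice junction ties a read to them. They were taken as every row of the 3 deposited abundance tables classed as known with an exon number of 1. The rule found 1428 transcripts among 506946 transcript models, 35496 of which were known. Of the 1428, 970 had at least 1 read. The reads come from direct sequencing of native RNA on Oxford Nanopore instruments, prepared from total RNA per the labels, in 3 established human cell lines. GM12878 (3 libraries) is a B-lymphoblastoid line, HepG2 (3 libraries) is a hepatocellular carcinoma line, and K562 (2 libraries) is known as a chronic myelogenous leukaemia line although its labels carry the same lymphoblastoid cell type as GM12878. No treatment, genotype change or time point was given for any library, and each group is 1 line, so a difference between groups is a difference between these lines.

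Most human genes are transcribed with introns that are spliced out. Those without introns fall into a few kinds. Mitochondrial genes are transcribed from the circular mitochondrial genome as long precursors that are cut at the transfer RNAs. Replication-dependent histone genes are intronless and their mRNAs mostly end in a stem loop instead of a poly(A) tail. Several fast-responding regulators, such as JUNB, CEBPA and HSPA1A, also lack introns. Processed pseudogenes are DNA copies of spliced mRNAs that were reverse transcribed and inserted elsewhere in the genome, and ribosomal protein genes are a common source of them.

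The sequences below show how close abundant pseudogene members were to the spliced gene they resemble. Each is a 60-base stretch of the pseudogene transcript, read 5′ to 3′ from the GRCh38 genome of GENCODE release 29, above the same stretch of the parent's coding sequence, and capitals mark the bases that differ. The RPL9P9 stretch lies at chr15:82372494-82372553 (minus strand) and holds the single difference in 579 aligned bases. The RPL13AP5 stretch lies at chr10:96750362-96750421 (plus strand) and holds 1 of 3 differences in 612 bases. The RPSAP58 stretch lies at chr19:23827239-23827298 (plus strand) and holds 1 of 4 differences in 888 bases. The RPL13P12 stretch lies at chr17:17383501-17383560 (minus strand) and holds 3 of 10 differences in 636 bases.
RPL9P9: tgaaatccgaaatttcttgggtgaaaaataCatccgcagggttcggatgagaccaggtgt
RPL9: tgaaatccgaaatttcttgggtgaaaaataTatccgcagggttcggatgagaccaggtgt
RPL13AP5: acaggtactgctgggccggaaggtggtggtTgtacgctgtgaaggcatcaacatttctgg
RPL13A: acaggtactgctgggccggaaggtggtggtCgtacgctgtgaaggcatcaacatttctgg
RPSAP58: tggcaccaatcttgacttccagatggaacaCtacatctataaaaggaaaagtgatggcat
RPSA: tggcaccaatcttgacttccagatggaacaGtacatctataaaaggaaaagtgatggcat
RPL13P12: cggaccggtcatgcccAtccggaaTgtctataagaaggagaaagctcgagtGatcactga
RPL13: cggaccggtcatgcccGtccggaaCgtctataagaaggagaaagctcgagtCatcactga

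Library totals lay between 70374 reads (GM12878 replicate 3) and 461497 (HepG2 replicate 1), and 3239 to 11548 reads per library fell on known single-exon transcripts. Levels are given as CPM, read counts divided by the library total after TMM scaling, which corrects for a few very abundant RNAs. Each read is 1 RNA molecule, and levels were not divided by length. A line with 0 reads allows up to 6.62 CPM in GM12878, 3.49 in HepG2 and 6.01 in K562 (3 counts over the libraries of the line, counting error only). Each line read all 5 marker genes fixed for it, and the summed level of the other lines' markers was at most 213 CPM against at least 10618 CPM for its own. The erythroid markers of K562 had reads in K562 and 0 in the other lines. Nothing in the labels states that the libraries of a line are separate cultures, and p-values then cover only the variation among these libraries, which may be technical. Over the known single-exon transcripts, the chi-square of 2 libraries of a line, divided by its degrees of freedom, was 2.4 to 6.42. Libraries of a line thus differed by more than counting error, which cannot tell separate cultures from repeat preparations of the same RNA. The chi-square values were highest between GM12878 replicates 1 and 3 (6.42) and between the K562 libraries (5.19).

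Processed pseudogenes were the largest class by number and by reads. They made up 570 of the 1428 transcripts, 438 with reads, and took 41561 of the 58130 reads on known single-exon transcripts (71.5%). The 11 mitochondrial mRNAs took 8025 reads (13.8%) and the 2 mitochondrial ribosomal RNAs 2171 (3.73%). The 363 transcripts of nuclear protein-coding genes took 5577 reads (9.59%), from 230 with reads. The 449 long noncoding RNAs, which include models awaiting experimental support, were many but took only 734 reads (1.26%), and 267 of them had any. The plot of reads by class shows that pseudogenes formed the bulk of the share in all 8 libraries.

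**Figure D1:**
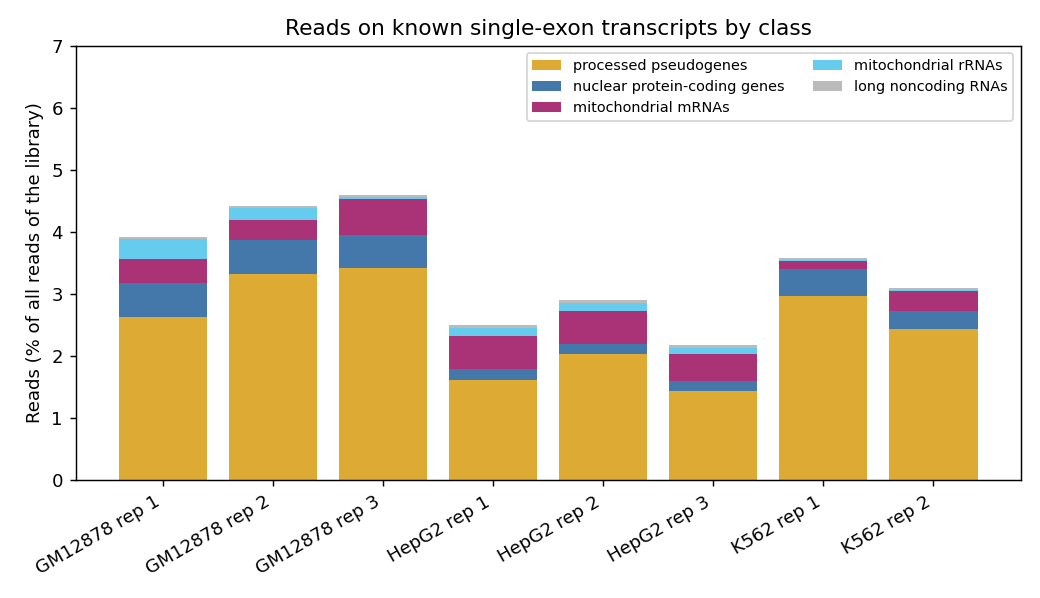
Reads on known single-exon transcripts as a percent of all reads of each library (y axis), 1 bar per library, stacked by class; 33 transcripts of other classes, with 62 reads in all, are not drawn. Pseudogenes are the largest part of every bar, from 1.43% in HepG2 replicate 3 to 3.42% in GM12878 replicate 3.

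The reads were held by few transcripts. The 10 most read took 48.7% of the reads and the 50 most read took 87%, while 458 transcripts had 0 reads and 422 had exactly 1. Only 99 were read in every library and 221 in all 3 lines. By length, 68.7% of the reads fell on transcripts of 500 to 1000 bases and 20.1% on those of 300 to 500 bases, the shortest in the tables. The 50 transcripts of 3000 bases or more held 36 reads. Set beside other known transcripts, those with 1 exon were detected as often as those with 2 exons: 67.9% had a read, against 67.2% of 4672 with 2 exons and 56.8% of 29396 with 3 or more. Weighted by reads, their mean length was 752 bases, against 1312 with 2 exons and 1595 with 3 or more. Without mitochondrial RNAs and processed pseudogenes, the 845 that remain held 6373 reads, 0.784% of all known reads, and 61.4% of them had a read.

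Ribosomal protein genes were the parents of most pseudogene reads. BLASTN of each pseudogene against spliced protein-coding transcripts gave a closest gene for 564 of 570. For 274 it was a ribosomal protein gene, and these held 37696 reads, 90.7% of the reads on pseudogenes and 64.8% of the reads on known single-exon transcripts. Pseudogenes with at least 100 reads (47 of them) had a median identity to the parent of 98.9%, with a range of 95.4% to 100%. The median identity was 97.5% with 10 to 99 reads, 95.9% with 1 to 9 reads and 94.1% with 0 reads. Median reads on the parent gene fell in the same order, at 3787, 2820, 1218 and 958. Across the 564 pseudogenes, reads were correlated with identity at r = 0.38 (Spearman 0.45) and with parent reads, both as log2(reads + 1), at r = 0.23 (Spearman 0.21), as a description over pseudogenes that share libraries and often a parent. Reads on a pseudogene this close to its parent are uncertain, because the counting may divide reads of 1 source between both.

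The annotated pseudogene models also match the coding part of their parents rather than the whole mRNA. Of the 564 with a match, 481 (85.3%) aligned entirely within the parent's coding sequence, and 459 were within 5% of its length. Among the 47 with at least 100 reads, 44 aligned within it and 46 were within 5% of its length. The letters AATAAA or ATTAAA, the usual signal for adding a poly(A) tail, were in the last 40 bases of 18 of 570 pseudogene models (3.16%), against 228 of 363 single-exon models of nuclear protein-coding genes (62.8%) and 43.1% of known models with 2 exons. This describes where the annotated models end, not where the reads ended.

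In 7 of the 43 families with at least 100 pseudogene reads, pseudogenes together had more reads than all models of the parent gene. RPL9, a protein of the large ribosomal subunit, had 510 reads and its 2 pseudogenes 4255. In RPL9 the pseudogene share was 93.2, 94.6 and 94.4% in GM12878, 89.9, 90 and 90.7% in HepG2, and 86.6 and 83.7% in K562. The 3 lines did not overlap in that share, which was highest in GM12878 and lowest in K562. RPL21, also of the large subunit, had 120 reads against 1600 on 14 pseudogenes with reads (93%). RPL7 had 1239 against 3465 and RPL13A 3898 against 4412. RPS26 and RPL36A were also among the 7. At the other end the share was 1.1%, and the median over the 43 families was 9.42%. RPS2, with 11680 reads on the parent and 2178 on 10 pseudogenes with reads, stood at 15.7%.

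The pseudogene share moved from library to library in most families at once. Pooled over the 43 families it was 20.7, 23.9 and 25.7% in GM12878, 15.1, 19.4 and 14.1% in HepG2, and 21.3 and 15.3% in K562. The libraries of HepG2 and K562 overlapped, and those of GM12878 overlapped with K562. Within HepG2, replicate 2 had the highest share in 38 of the 43 families, and within K562 replicate 1 had it in 42. Within GM12878, replicate 3 had it in 27 families and replicate 2 in 14. HepG2 replicate 2, K562 replicate 1 and GM12878 replicate 3 were also the shallowest libraries of their lines, with 248490, 142837 and 70374 reads. Whether depth or something else set these libraries apart was not tested.

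**Figure D2:**
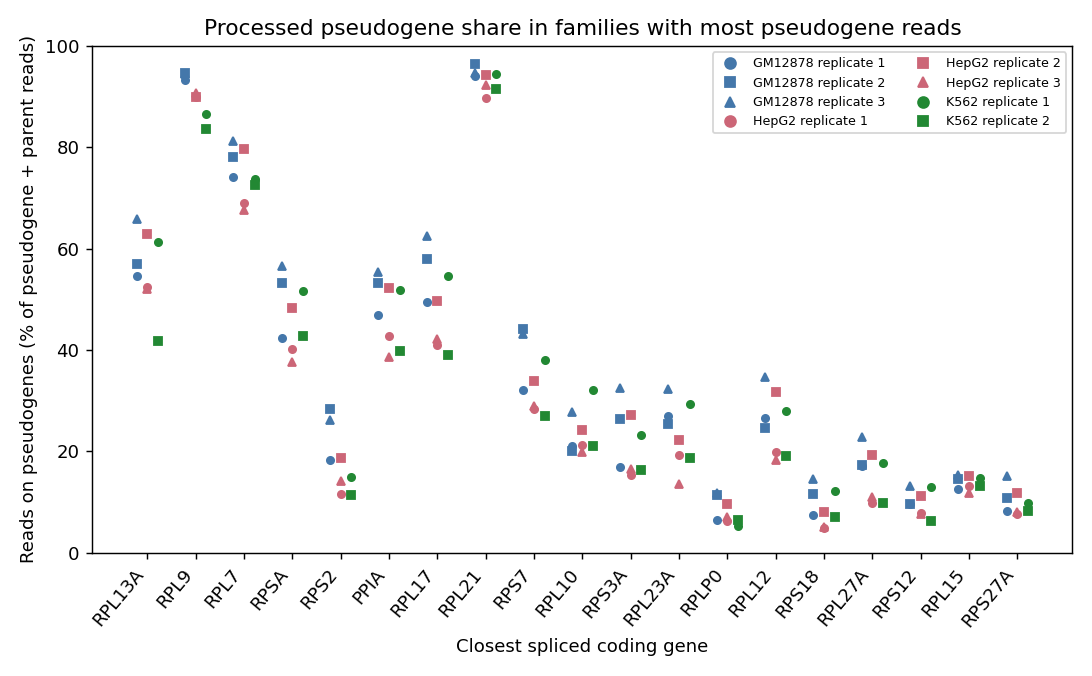
Reads on processed pseudogenes as a percent of reads on pseudogenes and parent gene together (y axis) for parent genes with most pseudogene reads (x axis); colour gives the line and marker shape the replicate. RPL9 and RPL21 sit above 80% in every library, and within a line the same library tends to be on top.

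Transcript levels were compared between lines with edgeR's quasi-likelihood test fitted on all transcript models, and a transcript was called at a Benjamini-Hochberg adjusted p under 0.05 and an absolute log2 change of at least 1. Of the 1428 transcripts, 86 passed the filter on low counts, 59 of them pseudogenes, 16 of nuclear protein-coding genes, 10 mitochondrial and 1 noncoding. High counts in a single line were enough to pass, so the counts below do not speak for the untested members.

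HepG2 against GM12878 gave 29 calls among the 86 (33.7%), where 50.7% of all 3883 tested models were called. Of these, 24 were higher in GM12878 and 5 higher in HepG2, while over all tested models 18.4% were called higher in GM12878 and 32.3% higher in HepG2. This split depends on the filter: it was 32 and 21 with a minimum of 10 reads, and 8 and 12 with no filter beyond 1 read. The median log2 change was -0.41 over the 86 and 0.20 over all tested models. K562 against GM12878 gave 20 calls (23.3%, background 20.8%), 5 higher in K562 (background 9.37%) and 15 higher in GM12878 (background 11.4%). K562 against HepG2 gave 29 calls (33.7%, background 43.9%), 15 higher in K562 (background 13.7%) and 14 higher in HepG2 (background 30.2%). The comparisons share libraries. Without GM12878 replicate 2 the 20 calls of K562 against GM12878 became 11.

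The summed level of the listed histone transcripts was highest in GM12878 and lowest in HepG2, and most of it was the single gene HIST1H1C. These are levels of the RNA molecules read. Whether histone mRNAs without a poly(A) tail were read as well was not tested. The list took gene symbols starting HIST1H, HIST2H, HIST3H or HIST4H, plus H2AFX, so H1FX, H1F0 and H2AFJ were not on it. Summed over the 52 transcripts of the list, the level was 3276, 3339 and 3009 CPM in GM12878, 208, 219 and 249 in HepG2, and 1890 and 1424 in K562, and no line overlapped another. Of the 52, 19 had reads and 5 were tested. All 5 were called higher in GM12878 than in HepG2, 2 were called higher in GM12878 than in K562 and 1 higher in K562, and 4 were called higher in K562 than in HepG2. Over all tested models 18.4% were called higher in GM12878 than in HepG2, 11.4% higher in GM12878 than in K562 and 13.7% higher in K562 than in HepG2.

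HIST1H1C, which encodes the linker histone H1.2 that binds DNA between nucleosomes (chr6:26055787-26056428, minus strand, GRCh38, 642 bases), held 1850 of the 2458 reads on the histone list. Its level was 2691, 2765 and 2410 CPM in GM12878, 55.9, 44.7 and 49.7 in HepG2, and 1392 and 1086 in K562. The 3 lines were fully separate. The mean was 52.3-fold higher in GM12878 than in HepG2, with a log2 change of -5.68 ± 0.25 (SE) and an adjusted p of 2.9e-18 by edgeR's quasi-likelihood test, and 24.7-fold higher in K562 than in HepG2 (log2 4.59 ± 0.26, adjusted p 1.07e-15). K562 was 2.12-fold lower than GM12878 (log2 -1.09 ± 0.22, adjusted p 0.000277), which is close to the log2 threshold of 1. It lay on the other side of that threshold at -1.0 without GM12878 replicate 1, -0.91 without GM12878 replicate 2 and -0.87 without K562 replicate 2.

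The 250 bases before the HIST1H1C start in RefSeq are printed because this transcript set the histone levels. They come from RefSeq (symbol H1-2, GRCh38.p14, chr6:26056471-26056720, minus strand), 5′ to 3′, and capitals mark the letters CCAAT and AAACACA on either strand. CCAAT is the core of the CCAAT box, and AAACACA is known as part of the H1 box of linker histone promoters.
HIST1H1C promoter: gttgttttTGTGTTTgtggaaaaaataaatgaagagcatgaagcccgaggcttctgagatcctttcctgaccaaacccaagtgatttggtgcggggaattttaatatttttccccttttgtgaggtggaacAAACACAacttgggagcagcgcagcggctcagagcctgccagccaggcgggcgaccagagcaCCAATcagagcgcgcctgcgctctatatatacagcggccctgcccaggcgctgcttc
The window holds 1 CCAAT, 2 AAACACA and no TATAAA, the only letters of a TATA box that were searched. Other forms were not counted, and the window holds the run tatatata near its end. Among windows of 27305 RefSeq promoters, 33% held CCAAT, 4.95% AAACACA and 11.1% TATAAA on either strand. In the 42 listed histone transcripts with a promoter entry the shares were 81%, 9.52% and 71.4%. A match is a run of letters only.

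HIST2H2AA3 and HIST2H2AA4 encode the same core histone, H2A, from near-identical copies on chromosome 1, so reads may be divided between them. HIST2H2AA3 was at 166, 143 and 147 CPM in GM12878, 7.99, 24.8 and 24.9 in HepG2, and 76.1 and 33.5 in K562. HIST2H2AA4 was at 136, 129 and 159 CPM in GM12878, 16, 14.9 and 21.3 in HepG2, and 87.8 and 45.6 in K562. For each copy the lines did not overlap, and GM12878 was higher than HepG2 by 7.90-fold and 8.12-fold (adjusted p 1.29e-06 and 1.12e-06, edgeR). HIST2H2AA3 was also called lower in K562 than in GM12878 (log2 -1.58 ± 0.46, edgeR adjusted p 0.0111) and higher in K562 than in HepG2 (0.0276). The former was at an adjusted p of 0.0584 without GM12878 replicate 1, 0.0545 without GM12878 replicate 2 and 0.278 without K562 replicate 2, and the latter at 0.156 without HepG2 replicate 1 and 0.228 without K562 replicate 1. HIST3H2A, another H2A gene, was highest in K562: 11 and 26 reads in K562, 0, 2 and 1 in GM12878 and none in HepG2. Its K562 level was 64.4 and 79.1 CPM, at least 20.6-fold above HepG2 (edgeR adjusted p 1.12e-06), and it was also called higher in K562 than in GM12878 (adjusted p 0.0014). Its call in GM12878 over HepG2 rests on 3 reads against 0 (adjusted p 0.0395) and was lost without any 1 of GM12878 replicates 2 and 3, HepG2 replicates 1 to 3 and K562 replicate 1, at adjusted p of 0.0552 to 0.177. H2AFX encodes H2A.X, the variant phosphorylated at DNA breaks. It was at 240 ± 18.6 CPM in GM12878 (mean ± SD of 3 libraries), 116 ± 16 in HepG2 (3 libraries) and 190 ± 53.8 in K562 (2 libraries). GM12878 exceeded HepG2 with a log2 change of -1.05 ± 0.29 (edgeR adjusted p 0.003), which was -1.0 without GM12878 replicate 2 and -0.99 without HepG2 replicate 2.

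Among regulators and signalling proteins, some were read in 1 line only or nearly so. RHOB, a small GTPase (chr2:20447074-20449445), was at 77.2, 79.5 and 56.8 CPM in HepG2 and had no reads in the other libraries. It was at least 10.8-fold higher than in GM12878 and 11.8-fold higher than in K562. CITED4, which binds the coactivators CBP and p300, stood at 71.9, 74.5 and 92.3 CPM in the HepG2 libraries. It had no reads in GM12878 and 3 in K562 replicate 2, and was at least 12-fold higher in HepG2 than in GM12878. The edgeR adjusted p of HepG2 against GM12878 was 6.15e-06 for RHOB and 2.82e-06 for CITED4. JUNB, a subunit of the AP-1 transcription factor, was at 101, 64.3 and 110 CPM in GM12878, 5.32, 19.9 and 10.7 in HepG2, and 23.4 and 51.7 in K562. JUNB was 7.67-fold higher in GM12878 than in HepG2 (log2 -2.98 ± 0.55, adjusted p 2.57e-05).

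The transcription factors CEBPA and CEBPB, which act in liver and myeloid cells, did not pass the filter on low counts and have no test. CEBPA had 18, 13 and 8 reads in HepG2 and 0 in the other libraries. CEBPB had 38, 9 and 12 reads in HepG2, 3 and 12 in K562, and 0 in GM12878. Of the 25 listed immediate early and stress transcription factors, 6 were known single-exon transcripts of the tables, all 6 had reads and JUNB alone was tested. HSPA1A, the inducible chaperone Hsp70, shares nearly all of its sequence with HSPA1B and is uncertain. It had 23 and 20 reads in K562, 12, 2 and 10 in HepG2 and 2, 1 and 0 in GM12878, and was called higher in K562 than in GM12878 (adjusted p 0.000261, edgeR). F8A1, which has near-identical copies on the X chromosome, was at 43 ± 6.86 CPM in GM12878 (SD of 3 libraries) and 23.2 ± 4.57 in HepG2 (3 libraries), with 0 reads in both K562 libraries, at least 7.15-fold and 3.86-fold lower. The 6 listed intronless receptors in the tables had 23 reads in all, and the 1 listed long or structured noncoding RNA had none.

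Several mitochondrial mRNAs were lower in K562 than in the other lines, with wide spread between libraries. Summed over the 11, the level was 3471, 2805 and 4979 CPM in GM12878, 6614, 6459 and 5387 in HepG2, and 1141 and 2942 in K562. K562 and GM12878 overlapped in this sum, and both lay below HepG2. Of the 8 tested, 5 were called lower in K562 than in HepG2 and 4 lower in K562 than in GM12878. Among all tested models 30.2% were called lower in K562 than in HepG2 and 11.4% lower in K562 than in GM12878. The single call between HepG2 and GM12878 was MT-ND1, higher in HepG2 (log2 1.02 ± 0.36, edgeR adjusted p 0.0176). That adjusted p was 0.0987 without GM12878 replicate 2, 0.105 without GM12878 replicate 3, 0.0779 without HepG2 replicate 1 and 0.083 without HepG2 replicate 2. Among the 4 calls against GM12878, that of MT-CO1 (log2 -1.05 ± 0.33, adjusted p 0.0197) was at 0.0979 without GM12878 replicate 2, 0.103 without GM12878 replicate 3 and 0.36 without K562 replicate 1. MT-ND1, a subunit of respiratory complex I, was at 278, 153 and 61.2 CPM in GM12878, 399, 442 and 234 in HepG2, and 11.7 and 33.5 in K562. Both K562 libraries lay below every other library, 15.9-fold below HepG2 by means (log2 -3.79 ± 0.51, edgeR adjusted p 1.27e-06) and 7.27-fold below GM12878 (log2 -2.77 ± 0.55, adjusted p 0.00042). MT-ATP6, a subunit of the ATP synthase, showed the same order, at 355, 148 and 135 CPM in GM12878, 413, 268 and 234 in HepG2, and 11.7 and 39.6 in K562. Its adjusted p was 2.71e-06 against HepG2 and 0.000118 against GM12878.

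MT-CYB, of complex III, was at 390, 450 and 330 CPM in GM12878, 908, 864 and 334 in HepG2, and 29.3 and 149 in K562. It was called lower in K562 than in HepG2 (edgeR adjusted p 0.00135) and in GM12878 (0.0261), the latter at 0.0517 without GM12878 replicate 1 and 0.0942 without GM12878 replicate 2. MT-CO3, a subunit of cytochrome c oxidase and the most read of the known single-exon transcripts with 4815 reads, was at 1455, 1420 and 3768 CPM in GM12878, 3689, 3369 and 3647 in HepG2, and 954 and 2191 in K562. GM12878 replicate 3 stood with HepG2 rather than with its own line, and MT-CO3 was not called in any comparison. The small ribosomal RNA MT-RNR1 was at 1798, 950 and 135 CPM in GM12878, 956, 1028 and 653 in HepG2, and 17.6 and 21.3 in K562. K562 lay 49.5-fold below GM12878 and 45.3-fold below HepG2 by means (edgeR adjusted p 0.0271 and 0.0152). Without K562 replicate 1 these adjusted p were 0.146 and 0.109, without K562 replicate 2 they were 0.212 and 0.119, and without GM12878 replicate 2 the former was 0.0773. MT-RNR2, the other mitochondrial ribosomal RNA, was at 1118, 717 and 85.6 CPM in GM12878, 578, 591 and 536 in HepG2, and 64.4 and 198 in K562. K562 was 4.88-fold below GM12878 and 4.34-fold below HepG2 by means, and neither was called (edgeR adjusted p 0.156 and 0.128). GM12878 replicate 3, the shallowest library, was low for MT-RNR1 and MT-ND1 and high for MT-CO3.

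**Figure D3:**
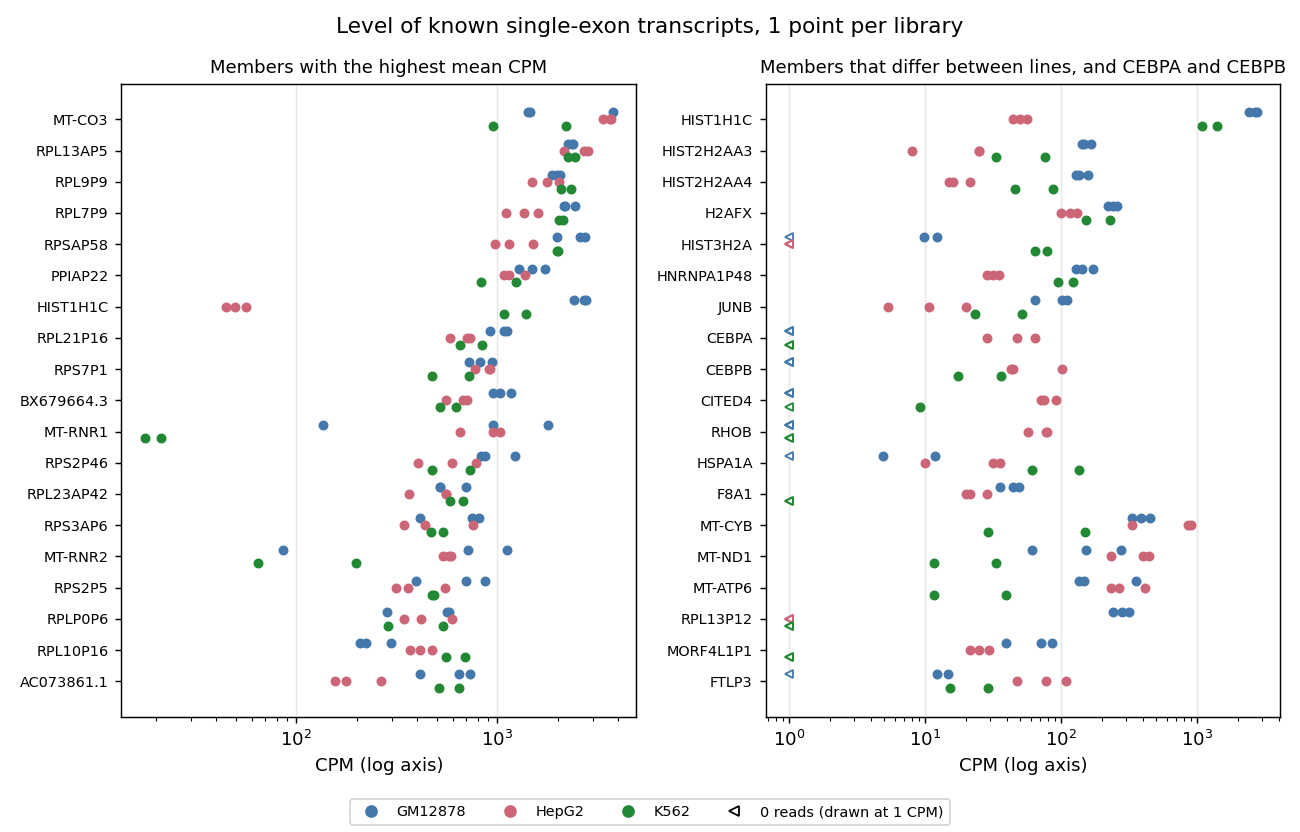
Level of named transcripts in CPM (x axis, log scale), 1 point per library coloured by line; open triangles at 1 CPM stand for libraries with 0 reads. Left, transcripts with the highest mean level; right, transcripts that differ between lines, with CEBPA and CEBPB. Among nuclear transcripts on the left, HIST1H1C has the widest gap between lines.

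The 3 most read pseudogenes were not called in any comparison. RPL13AP5, closest to RPL13A, was at 2323 ± 71.4 CPM in GM12878 (mean ± SD of 3 libraries), 2563 ± 363 in HepG2 (3 libraries) and 2352 ± 124 in K562 (2 libraries). RPL9P9 was at 1967 ± 89, 1765 ± 279 and 2199 ± 173 CPM, and RPL7P9, closest to RPL7, at 2251 ± 159, 1352 ± 241 and 2080 ± 70.6. For RPL7P9 only the log2 threshold prevented a call of HepG2 against GM12878 (log2 -0.735 ± 0.188, edgeR adjusted p 0.00132). The same held for K562 against HepG2 (log2 0.624 ± 0.205, adjusted p 0.0126). Of the 59 tested pseudogenes, 16 were called between HepG2 and GM12878 (27.1%, against 50.7% of all tested models), 15 of them higher in GM12878. Between K562 and GM12878 there were 8 calls (13.6% against 20.8%), 3 higher in K562, and between K562 and HepG2 there were 12 (20.3% against 43.9%), 8 higher in K562. By direction, 18.4% of all tested models were called higher in GM12878 than in HepG2. The share called higher in K562 was 9.37% against GM12878 and 13.7% against HepG2.

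RPSAP58 resembles RPSA, which encodes a ribosomal protein that also serves as a laminin receptor. It was at 1981, 2745 and 2593 CPM in GM12878, 1139, 1510 and 973 in HepG2, and 1983 and 2002 in K562. HepG2 lay below both other lines and was called against GM12878 with a log2 change of -1.02 ± 0.20 (edgeR adjusted p 5.85e-05), close to the threshold of 1. The change was -0.91 without GM12878 replicate 2, -0.82 without HepG2 replicate 3, -0.98 without K562 replicate 1 and -0.97 without K562 replicate 2. FTLP3, which resembles FTL, the light chain of the iron store ferritin, was the only pseudogene called higher in HepG2 than in GM12878. It was at 47.9, 109 and 78.1 CPM in HepG2, 0, 14.8 and 12.2 in GM12878, and 29.3 and 15.2 in K562, and the HepG2 mean was 8.69-fold above that of GM12878 (log2 3.02 ± 0.67, edgeR adjusted p 0.000266). RPL10P16, closest to RPL10, was at 556 and 691 CPM in K562 against 296, 223 and 208 in GM12878, 2.57-fold higher (log2 1.35 ± 0.27, adjusted p 0.000279). HepG2 lay between these lines, at 476, 412 and 366 CPM, and was not called against either. The edgeR adjusted p was 0.0102 for HepG2 against GM12878 (log2 0.773) and 0.0607 for K562 against HepG2 (log2 0.579).

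The count of a known single-exon transcript is only part of the reads of its gene. Reads that the program did not match to the known model were given to other models of the same gene, mostly 1-exon models of the class named genomic. The tables held 1242 genes whose known models are all single-exon, 980 of them with reads. Over the 80 such nuclear protein-coding genes with at least 20 reads, 43.7% of the reads were on the known transcript and 43.4% on 1-exon genomic models. By length of the known transcript the share on it was 0.244% for 300 to 500 bases (2 genes), 99.7% for 500 to 1000 (7 genes), 52.3% for 1000 to 1500 (13 genes), 34.3% for 1500 to 2000 (21 genes), 20.3% for 2000 to 3000 (30 genes) and 3.11% above (7 genes). Across the 80 genes it was correlated with length at r = -0.50 (Spearman -0.44), as a description.

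HIST1H1C had all 1850 of its reads on the known transcript, and SF3B5, a small subunit of the spliceosome's SF3b complex, had 411 of 413. PCBP1, an RNA-binding protein, had 514 of 835, CEBPA 39 of 310 and RHOB 61 of 242. JUND, another AP-1 subunit, had 10 of 577, and SEPHS2, an enzyme of selenium metabolism, had 0 of 313. For JUND and SEPHS2 nearly all others were on 1-exon genomic models. HIST1H2BK, a core histone gene, was one of several short transcripts with a low share: 3 of its 1206 reads were on the known model of 381 bases and 1189 on new spliced models. Among pseudogenes, RPL6P27 (867 bases) had 0 of 661. Among mitochondrial mRNAs, MT-CO3 had 4815 of 4877 reads on the known transcript, MT-CO1 654 of 1542, MT-ND4 496 of 765 and MT-ND5, the longest of these, 12 of 494. For pseudogenes the pooled share was 99.7% at 300 to 500 bases (37 genes), 94.2% at 500 to 1000 (51 genes) and 5.23% at 1000 to 1500 (8 genes), with medians over genes of 100, 99.3 and 54.6%. The last pooled value was set by EEF1A1P5, close to the translation factor gene EEF1A1, which held 3491 of the 3881 reads and had 8 of them on its known model.

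**Figure D4:**
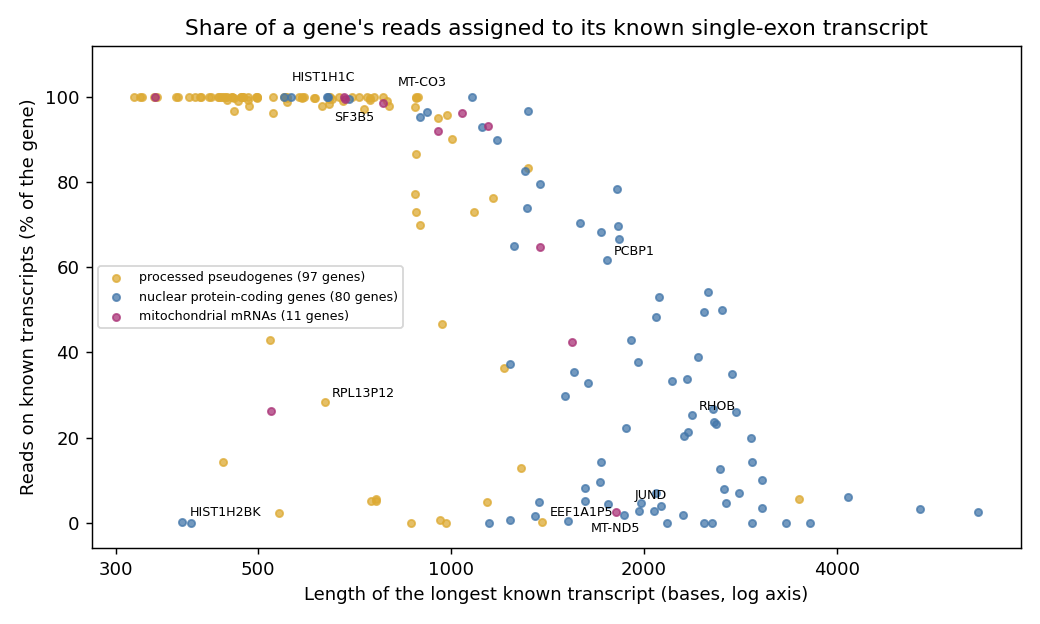
Share of a gene's reads on its known single-exon transcript, in percent (y axis), against the length of the longest known transcript in bases (x axis, log scale), 1 point per gene with at least 20 reads, coloured by class. Short transcripts lie near 100% with few exceptions, and those above 1000 bases spread down to 0.

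Because of this division, a difference between lines in a known transcript can be a difference in which model received the reads. RPL13P12 was called higher in GM12878 than in HepG2 and K562, with 41, 57 and 26 reads against 0 in every other library. Its gene had 45, 59 and 27 reads in GM12878, 69, 86 and 55 in HepG2, and 41 and 56 in K562, so the gene was read in all 3 lines. All 210 HepG2 reads and all 97 K562 reads of the gene were on 1-exon genomic models. MORF4L1P1, close to the chromatin gene MORF4L1, had 27 of 31 gene reads on the known transcript in GM12878, 21 of 44 in HepG2 and 0 of 28 in K562. H1FX, a linker histone gene, had 68 of 118 in GM12878, 31 of 215 in HepG2 and 29 of 96 in K562, and its K562 libraries differed from each other, with 23 of 37 and 6 of 59. Of 99 genes with at least 20 reads in at least 2 lines, 82 had a known share that varied by less than 10 percentage points between lines, 4 varied by 30 points or more and 2 of these by 50 or more. For HIST1H1C, RHOB, CITED4, JUNB and CEBPA the totals of the gene kept the order of the lines: RHOB had 3, 239 and 0 gene reads in GM12878, HepG2 and K562, CITED4 0, 93 and 3, CEBPA 0, 310 and 0, and JUNB 49, 17 and 33.

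**Figure D5:**
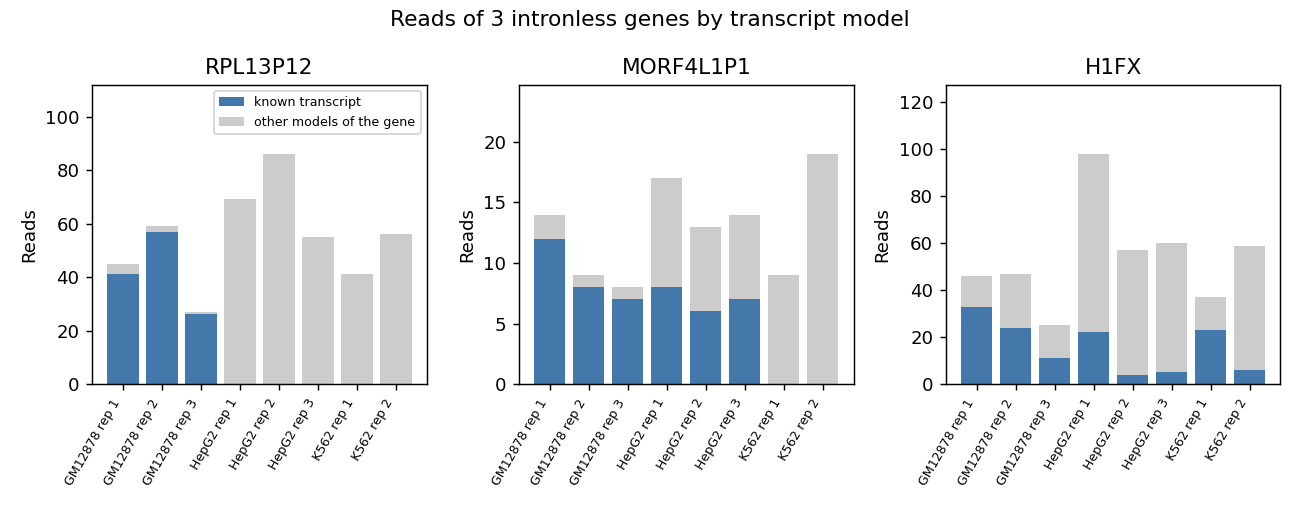
Reads per library (y axis, not scaled to depth) for 3 genes, divided into the known single-exon transcript and all other models of the gene. RPL13P12 has reads in every library but known-model reads only in GM12878, and MORF4L1P1 has none on the known model in K562.

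Over whole libraries, known single-exon transcripts took 3.93, 4.42 and 4.6% of the reads in GM12878, 2.5, 2.91 and 2.18% in HepG2, and 3.58 and 3.1% in K562. The lines did not overlap, and an exact permutation test over the 560 assignments of libraries to lines gave p = 0.00714 (0.0143 after Benjamini-Hochberg adjustment over the 12 share and length comparisons). Of reads on known models only, the mean shares were 9.63% in GM12878, 6.48% in HepG2 and 7.06% in K562 (exact permutation p 0.025, not adjusted). Depth differed too, at 70374 to 176118 reads in GM12878, 248490 to 461497 in HepG2, and 142837 and 313454 in K562. The shallowest library of each line had the highest share (4.6, 2.91 and 3.58%), and the part of depth was not tested. Without mitochondrial reads the shares were 3.74 ± 0.425% in GM12878 (mean ± SD of 3 libraries), 1.93 ± 0.317% in HepG2 (3 libraries) and 3.11 ± 0.467% in K562 (2 libraries), with an exact permutation p of 0.0143 (adjusted 0.0172), and p was 0.0571 without K562 replicate 2. GM12878 and K562 then overlapped (3.25% in GM12878 replicate 1, 3.44% in K562 replicate 1), and HepG2 lay below both. Processed pseudogenes alone, where GM12878 and K562 also overlapped, gave 3.15 ± 0.428, 1.71 ± 0.312 and 2.71 ± 0.371% (exact permutation p 0.0143, adjusted 0.0172). Without them the share was 0.59 ± 0.00409, 0.223 ± 0.00806 and 0.399 ± 0.0965% (exact permutation p 0.00357, the smallest this design can give, adjusted 0.0107). HIST1H1C carried much of that difference: with it also left out the shares were 0.288 ± 0.0156, 0.219 ± 0.008 and 0.258 ± 0.0594% (exact permutation p 0.129, adjusted 0.129).

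The read-weighted mean length of nuclear known single-exon transcripts was 692 ± 2.99 bases in GM12878 (mean ± SD of 3 libraries), 718 ± 12.5 in HepG2 (3 libraries) and 689 ± 4.09 in K562 (2 libraries), which did not pass the exact permutation test (p 0.0536, adjusted 0.0585). Without pseudogenes it was 986 ± 23.8, 1469 ± 23.5 and 1123 ± 20 bases (exact permutation p 0.00357, adjusted 0.0107), and without HIST1H1C as well 1345 ± 14.1, 1485 ± 25.7 and 1384 ± 40 (p 0.00714, adjusted 0.0143). The share of reads of intronless genes on known transcripts was 75.2, 77.2 and 79.3% in GM12878, 71.7, 71.8 and 70.8% in HepG2, and 79.2 and 81.1% in K562. HepG2 lay below both other lines, and the exact permutation p was 0.0107 (adjusted 0.0172). In nuclear protein-coding genes alone the share was 57.6 ± 1.29, 30.9 ± 1.02 and 47.8 ± 1.69%, and 35.5 ± 0.139, 30.3 ± 0.961 and 34 ± 1.48% without HIST1H1C (exact permutation p 0.00357 for both, adjusted 0.0107). With equal weight for each of the 22 such genes with at least 10 reads in every line it was 53.1 ± 3, 40.9 ± 1 and 47.9 ± 5.64% (exact permutation p 0.0143, adjusted 0.0172).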

How the data were processed

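The deposited tables hold read counts per transcript model for 8 direct RNA libraries, not normalized, made by the authors with TALON per the labels (version not given in the sources used here). The submitters' processing notes name minimap2 and the hg38 build. Model length and exon number are other values of the deposited tables. The list of models was identical in the 3 tables. All 1428 known single-exon transcripts matched GENCODE release 29 by identifier, with a genomic span equal to the deposited length. Their classes come from its gene types.

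Library totals were 70374 to 461497 reads. After filterByExpr and TMM scaling, 3883 models were fitted together over 8 libraries with edgeR 4.0.16 in R 4.3.3 (robust glmQLFit, two-sided glmQLFTest). K562 calls therefore assume that its 2 libraries vary like those of the other lines. The SE of a log2 change is the change divided by the root of F. Closest spliced genes came from BLASTN 2.17.0 (e-value 1e-20) against protein-coding transcripts. Shares and lengths, 1 value per library, were compared by an exact permutation test over 560 assignments.

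Named transcripts were the 20 with the highest mean CPM, up to 6 called per comparison and direction (ranked by change with 10 CPM added to both means, requiring 20 CPM in the higher line and libraries that do not overlap) and up to 3 per gene list. Genes named for their known share, gene families and length comparisons without pseudogenes or HIST1H1C were chosen after their values were seen. An item that the naming rule takes is not reported here. The members and lists were chosen with earlier results of these data known. Alternatives covered scaling (DESeq2 1.42.0), filters, a replicate block, known models only, and leaving out each library. Procedures were tested on simulated data.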

Additional observations from a re-analysis of the deposited data

How the results depend on the processing

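Member calls of HepG2 against GM12878 numbered 29, and 53 with a minimum of 10 reads over the 8 libraries (21 higher in HepG2), where 204 members were tested. Calls of K562 against HepG2 numbered 29, and 58 with that minimum. Calls of K562 against GM12878 numbered 20, 12 with no filter beyond 1 read and 13 by DESeq2's Wald test. With no filter, HepG2 against GM12878 gave 20 calls, 12 higher in HepG2. Leaving out 1 library gave 21 to 36, 11 to 24 and 22 to 35 calls for HepG2 against GM12878, K562 against GM12878 and K562 against HepG2. DESeq2 size factors moved the median log2 change of all tested models by -0.17, 0.00 and 0.23 in the same order, and that of members from -0.41 to -0.57, from -0.44 to -0.36 and from 0.16 to 0.40. With a replicate block the calls were 27, 20 and 30. The replicate numbers do not pair the libraries (correlations of same-numbered libraries were -0.073 to 0.070), and the labels give them no shared batch. Of 54 named calls, 26 were kept in every alternative that gave a value, and no value changed sign: 631 values stayed called and 102 did not. Each p that follows is of the exact permutation test over all 3 lines and does not test the differences given. Among single-library omissions, the nuclear share missed the threshold only without K562 replicate 2 (p 0.0571). It also did so without pseudogenes and HIST1H1C (p 0.129). The difference GM12878 minus HepG2 was 1.81 points in the former and 0.0692 in the latter. Over single-library omissions it was 1.66 to 2.05. The difference in read-weighted length, also GM12878 minus HepG2, was -26.4 bases, and -33 to -20.7 without single libraries. It was -124 with each member counted once, -483 without pseudogenes and -139 without pseudogenes and HIST1H1C. The test over all 3 lines passed the threshold in these last 3 alternatives. It also did so in 4 single-library omissions (p 0.0476 without any of the HepG2 libraries in turn, 0.0143 without K562 replicate 2). Alternatives without pseudogenes or HIST1H1C were chosen after seeing the data. The causes of these shifts were not tested. Shallow libraries limit calls to abundant members: 86 of 970 with reads were tested.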
